A study of Mus musculus with 9 samples.

Results

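The genes described are 8 Toll-like receptors (Tlr1, Tlr2, Tlr3, Tlr4, Tlr6, Tlr7, Tlr9 and Tlr13), the co-receptor Cd14 and the adaptor Myd88. They were picked by symbol, and all 10 were found among the 55414 genes of the count table. RNA was sequenced from retinas of Balb/c mice, an albino strain, in 9 libraries of 3 groups, with 3 libraries in each. The groups were a control, a light damage model, in which strong light injures the photoreceptors, and the light damage model with A74. The labels do not say what A74 is, nor its dose, the light exposure or the age of the mice. Nor do they say whether each replicate is another mouse, and the p-values then reflect only how these libraries vary, part of which may be technical. Sex-linked transcripts differed between control replicate 3 and control replicates 1 and 2, so the control libraries were not all from 1 mouse. Blocking of P2RX7, an ion channel opened by extracellular ATP, and the cGAS-STING pathway are named in the series title.

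Toll-like receptors are membrane proteins that recognise molecules shared by microbes and some molecules released by damaged cells. TLR2 (paired with TLR1 or TLR6) and TLR4 act at the cell surface, TLR4 with the help of CD14, while TLR3, TLR7, TLR9 and TLR13 sense nucleic acids inside endosomes. All of these receptors except TLR3 signal through MYD88, which leads to activation of NF-kB and of interferon regulatory factors. In the retina they are known mostly from microglia, the resident macrophages, and TLR3 also from Müller glia and pigment epithelium.

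The sequences upstream of 4 of the genes are shown because these genes were called in both the light damage and the A74 comparison that follow, as were Tlr7 and Cd14. They are the 250 bases before the RefSeq start on the gene's own strand (build GRCm38.p6), and the table had entries for 7 of the 10 genes, all but Tlr4, Tlr7 and Cd14. Capitals mark matches on either strand to 1 of 4 motifs, namely the NF-kB motif, the AP-1 motif TGANTCA, the PU box GAGGAA and the interferon-stimulated response element, which is a pair of GAAA runs with any 2 bases between them. The windows lie at chr3:83841609-83841858 (minus strand) for Tlr2, chr8:45410381-45410630 (minus strand) for Tlr3, chrX:106143025-106143274 (plus strand) for Tlr13 and chr9:119340019-119340268 (minus strand) for Myd88.
Tlr2: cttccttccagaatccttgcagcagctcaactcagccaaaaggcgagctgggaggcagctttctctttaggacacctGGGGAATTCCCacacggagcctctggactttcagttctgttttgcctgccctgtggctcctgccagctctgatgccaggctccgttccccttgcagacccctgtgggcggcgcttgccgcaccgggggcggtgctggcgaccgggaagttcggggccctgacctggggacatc
Tlr3: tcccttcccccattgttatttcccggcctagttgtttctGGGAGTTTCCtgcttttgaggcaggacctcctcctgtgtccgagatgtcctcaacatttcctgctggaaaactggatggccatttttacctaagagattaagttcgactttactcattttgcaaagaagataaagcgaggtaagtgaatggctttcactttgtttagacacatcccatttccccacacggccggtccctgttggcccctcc
Tlr13: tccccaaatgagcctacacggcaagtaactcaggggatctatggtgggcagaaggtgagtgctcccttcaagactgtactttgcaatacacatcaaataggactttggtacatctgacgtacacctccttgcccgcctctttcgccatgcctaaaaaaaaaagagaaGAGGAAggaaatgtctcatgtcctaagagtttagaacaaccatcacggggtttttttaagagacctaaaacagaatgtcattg
Myd88: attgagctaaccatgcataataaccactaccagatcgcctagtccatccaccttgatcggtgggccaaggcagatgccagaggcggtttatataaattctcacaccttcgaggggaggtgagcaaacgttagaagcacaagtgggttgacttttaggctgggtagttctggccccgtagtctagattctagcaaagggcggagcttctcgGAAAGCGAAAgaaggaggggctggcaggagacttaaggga
Upstream of Tlr2, 2 overlapping matches to the NF-kB motif began 173 and 172 bases before the start. The Tlr3 window held 1 NF-kB match that began 211 bases before the start, the Tlr13 window 1 PU box 83 bases before it and the Myd88 window 1 interferon-stimulated response element 40 bases before it. Among 32851 windows of the same length in the RefSeq table, 2.13% held the NF-kB motif, 6.75% the AP-1 motif, 23.3% the PU box and 2.98% the interferon-stimulated response element. The other genes with an entry held matches too, though Tlr1 was not called and Tlr6 and Tlr9 were not tested in the main fit. A Tlr1 window held a PU box and a Tlr6 window 2 overlapping interferon-stimulated response elements. The Tlr9 window held a PU box and an AP-1 match, and a second window each of Tlr1 and Tlr6 held none. Matches were thus not particular to the called genes. A match describes letters in a window and was not tested as a binding site.

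Library totals ran from 14787972 to 18740434 counts, and 17272 genes passed a minimum of 10 counts (0.641 CPM, counts scaled to a common library total, in at least 3 libraries). Libraries of control and of light damage were not alike in sex-linked transcripts, while the 3 A74 libraries were. In genes of anterior eye tissue, libraries differed within each of the 3 groups. Y-linked counts were present in replicates 1 and 2 of control and of light damage and were 0 in the other 5 libraries. Xist, an RNA made from the inactive X, was high in control replicate 3 and in the 3 A74 libraries. A sum of 8 anterior tissue genes was 138 to 275 CPM in 5 libraries (the 4 with Y-linked counts and A74 replicate 1) and 12.5 to 15.9 CPM in the other 4. Summed markers of microglia and macrophages, 22 genes, were 97.0 to 106 CPM in control, 272 to 458 CPM in light damage and 103 to 139 CPM with A74. Other marker lists moved too. Of 10 Müller glia markers 8 were called higher after light damage, and 8 lower and 1 higher with A74 relative to light damage, with sums of 5120 to 5790, 6300 to 6810 and 5100 to 5690 CPM in control, light damage and A74. Of 5 astrocyte markers 3 were called higher and 3 lower, with sums of 204 to 212, 274 to 459 and 177 to 188 CPM. Of 12 rod markers 9 were called lower and 10 higher, with sums of 60300 to 65800, 35000 to 51000 and 58400 to 61500 CPM. The part of these levels in the results that follow was not tested.

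Among 9 neutrophil markers Ly6g, Mpo, Retnlg and Elane had no counts in any library, and their summed level was 0.845 to 1.34 CPM in control, 2.82 to 4.21 in light damage and 1.33 to 2.63 with A74. Most of that sum was Csf3r, a growth factor receptor gene, with means of 0.792, 3.38 and 1.58 CPM. It had up to 69 counts and rose by 2.08 after light damage (adjusted p = 0.00026 by edgeR). No other gene of the list had enough counts to be tested. Camp went the other way, with 12, 1 and 11 counts summed over the libraries of control, light damage and A74. The 5 plasmacytoid dendritic cell markers had sums of 164 to 172, 180 to 229 and 140 to 170 CPM. Most of each sum was Tcf4, with means of 159, 181 and 146 CPM. Of 4 tested, 2 were called higher after light damage and 1 lower, where 13.0% and 12.8% of all genes tested were. Bst2, which is also an interferon-induced gene, had up to 576 counts and rose by 3.68 (adjusted p = 0.0146 by edgeR). Ccr9 went from a mean of 5.59 CPM in control to 2.87 CPM in light damage. Of 6 monocyte markers, with sums of 2.22 to 24.9, 1.51 to 20.5 and 1.53 to 15.1 CPM, Ccr2 had at most 7 counts and Ly6c2 at most 4, while Vcan, which is also among the anterior tissue genes, had up to 409. The 8 markers of T and B cells summed to at most 1.82 CPM in a library, with no counts of Cd3e.

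The receptors were scarce in the control retina. Levels between genes were compared as CPM per kilobase of exon, with exon lengths from another annotation (GENCODE M21) than the deposited table. In control libraries the order was led by Myd88 at 2.27 ± 0.294, Cd14 at 1.08 ± 0.0558 and Tlr3 at 0.741 ± 0.0915 CPM per kilobase (SD, n = 3), and the ranges of these 3 genes did not overlap. Tlr4, Tlr13, Tlr7, Tlr1, Tlr2, Tlr6 and Tlr9 followed between 0.143 and 0.0529 CPM per kilobase, each with a range that overlapped that of its neighbour. In light damage Tlr7 followed Myd88, Cd14 and Tlr3 at 1.12 ± 0.418 CPM per kilobase (SD, n = 3), and its range overlapped that of Tlr2 at 0.859 and not that of Tlr3 at 2.39. With A74 the level of Tlr7 was 0.0718 ± 0.0140 CPM per kilobase (SD, n = 3), and it stood between Tlr6 and Tlr9 at the low end, whose ranges overlapped its own. Receptors outside the set were near absent, with at most 3 counts of Tlr5, 1 of Tlr8, 1 of Tlr11 and 2 of Tlr12 in a library.

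**Figure D1:**
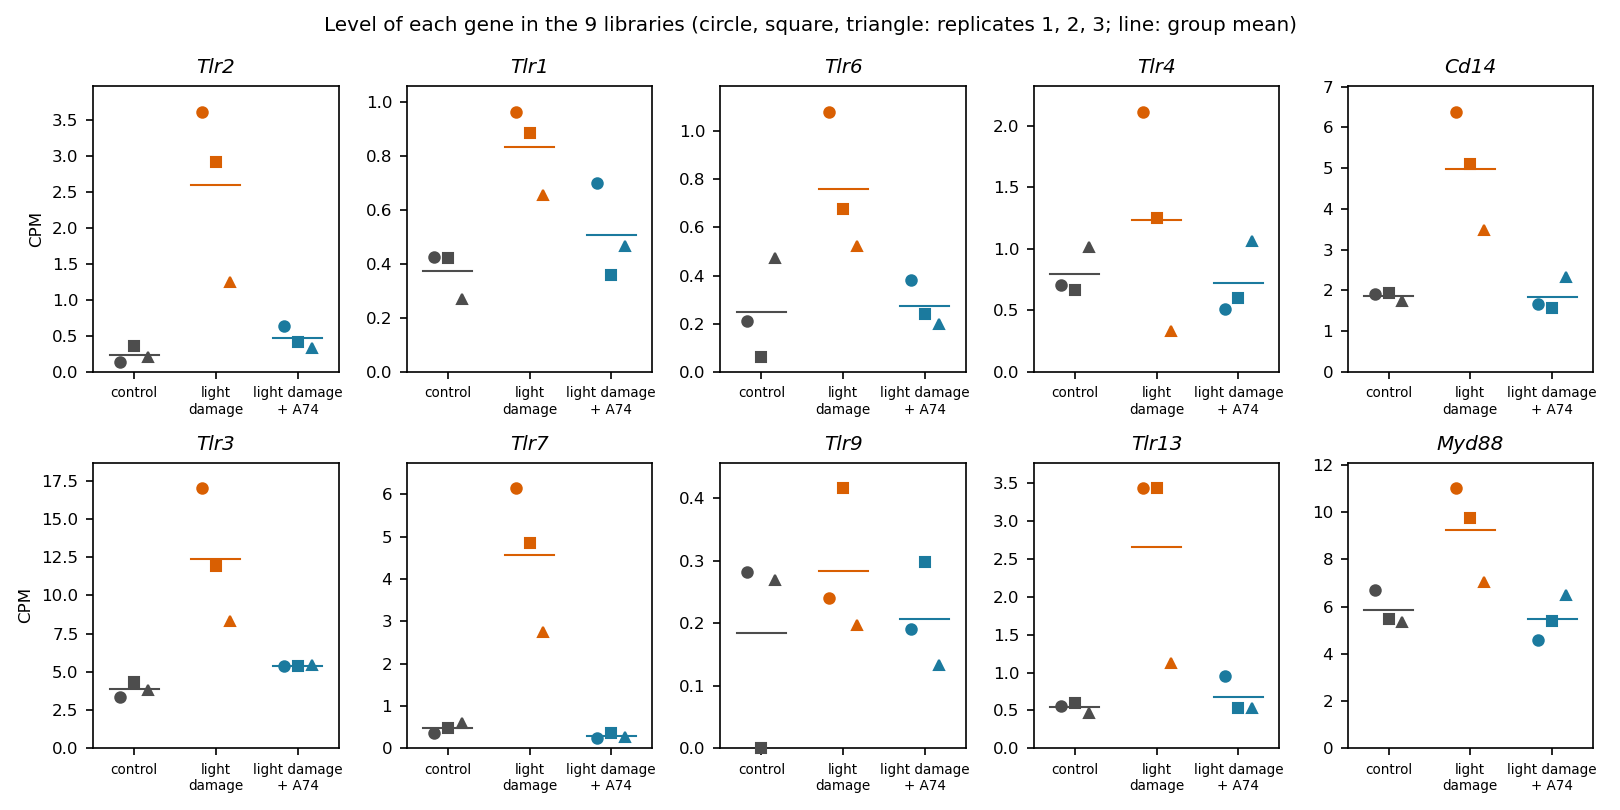
CPM of each of the 10 genes (vertical axes, linear, each with its own scale) in the 3 libraries of each group, with the group mean as a line. Light damage replicate 3 (triangle) is the lowest of its group in all 10 panels, and Tlr7 in light damage, 2.75 to 6.14 CPM, lies above all control and A74 libraries.

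Light damage was first compared with control. Tlr2, Tlr7, Tlr13, Tlr3, Cd14 and Myd88 were higher after light damage, with rises from 1.59-fold for Myd88 to 10.5-fold for Tlr2. Tlr1 and Tlr4 did not pass the test, and Tlr6 and Tlr9 had too few counts to enter it. The edgeR quasi-likelihood test called 6 of the 8 tested genes higher and none lower, where 13.0% of all genes tested were called higher and 12.8% lower. Without light damage replicate 3 and A74 replicate 1, 8 of the 8 were called higher, where 16.5% of all genes were. Light damage replicate 3 was the lowest of its group for all 10 genes, so leaving it out raises their light damage means. That count is therefore no added support. The median log2 fold change of the 8 was 1.55, and that of all genes tested was 0.01. Tlr2 and Tlr7 reached the count minimum in light damage libraries alone, and Tlr1 and Tlr13 in those and A74 replicate 1, so they entered the test because they were high there and the count over the 8 is a description. Whether a retina held more cells that express these genes or more RNA per cell cannot be told apart in bulk RNA.

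Among the surface receptors, Tlr2, which binds microbial lipoproteins, had 0.141, 0.362 and 0.202 CPM in control replicates 1 to 3 and 3.61, 2.91 and 1.25 CPM in light damage. The groups did not overlap, and the control values stood on 2 to 6 counts a library. The log2 fold change was 3.40 (SE 0.48, edgeR adjusted p = 0.000138), and light damage replicate 3 had the smallest of the 3 light damage values. Cd14, which hands lipopolysaccharide to TLR4, had 1.91, 1.93 and 1.75 CPM in control and 6.38, 5.10 and 3.48 CPM in light damage. Its log2 fold change was 1.42 (SE 0.26, edgeR adjusted p = 0.000822).

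Tlr4, the lipopolysaccharide receptor gene, had 0.706, 0.664 and 1.01 CPM in control and 2.11, 1.25 and 0.328 CPM in light damage. The groups overlapped, since light damage replicates 1 and 2 were above the control libraries and replicate 3 was below them. The fitted difference of 0.64 on the log2 scale (SE 0.50) did not pass (edgeR adjusted p = 0.382), and without light damage replicate 3 it was 1.07 (edgeR adjusted p = 0.0489). Within the libraries with more anterior tissue RNA, 2 light damage against 2 control, the Tlr4 value was 1.27, and within the others, 1 against 1, it was -1.60. The difference between these values had an unadjusted p of 0.00425 and an adjusted p of 0.143 by edgeR.

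Tlr1, a partner of TLR2, had 4 to 7 counts in control and 10 to 17 in light damage, with no overlap in CPM. Its log2 fold change was 1.15 (SE 0.43, edgeR adjusted p = 0.0607), and leaving out light damage replicate 3 gave a call at 1.29 (edgeR adjusted p = 0.0460). Tlr6, the other partner, had 3, 1 and 7 counts in control and 18, 13 and 8 in light damage. In the fit without a count minimum its rise was 1.63 in log2 units (SE 0.60, adjusted p = 0.0448 by edgeR), where 7.96% of all genes were called higher. For the genes called in the main fit, that fit gave smaller p-values from the same libraries. The unadjusted edgeR p of Tlr3 was 3.68e-22 in it and 1.07e-06 in the main fit, while that of Tlr1 was larger, at 0.0247 against 0.0168. Calls in these fits are thus not alike in strength. Tlr1 and Tlr6 transcripts share an identical run of 229 bases in GENCODE M21, and 8.85% of the 100-base windows of Tlr1 were found in Tlr6. Reads from that stretch can be assigned to either gene, so the split between the pair is uncertain.

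Among the endosomal receptors, Tlr7, a sensor of single-stranded RNA, had 0.353, 0.483 and 0.607 CPM in control and 6.14, 4.84 and 2.75 CPM in light damage. The lowest light damage library was above the highest control library by a wide margin. The log2 fold change was 3.23 (SE 0.35, edgeR adjusted p = 2e-05), from 5 to 9 counts a library to 42 to 102. Tlr3, a sensor of double-stranded RNA, had 3.39, 4.34 and 3.84 CPM in control and 17.0, 11.9 and 8.33 CPM in light damage. It had the most counts of the receptors, 48 to 72 in control and 127 to 283 in light damage, and its log2 fold change was 1.68 (SE 0.22, adjusted p = 9.5e-05 by edgeR).

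Tlr13, which in mice recognises bacterial ribosomal RNA, had 0.565, 0.603 and 0.472 CPM in control and 3.43, 3.43 and 1.12 CPM in light damage. Its rise was 2.28 in log2 units (SE 0.43, adjusted p = 0.00112 by edgeR). Tlr9, a sensor of unmethylated DNA, had 0 to 4 counts in control and 3 to 8 in light damage, and the groups overlapped. Without a count minimum its log2 fold change was 0.69 (SE 0.82, edgeR adjusted p = 0.645), so a change was not detectable at this depth.

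Myd88, the adaptor gene, had 6.71, 5.49 and 5.33 CPM in control and 11.0, 9.73 and 7.02 CPM in light damage. The groups did not overlap, though the highest control and the lowest light damage library were close. Its log2 fold change was 0.67 (SE 0.18, edgeR adjusted p = 0.0135), the smallest among the called genes. The call was lost when control replicate 2, control replicate 3, light damage replicate 1 or light damage replicate 2 was left out, with adjusted p of 0.0529, 0.0566, 0.0641 and 0.0514 by edgeR. The other called genes kept their call in each of the 9 fits that left out 1 library.

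Of the 8 tested genes, 7 had no overlap between control and light damage libraries, all but Tlr4, where 40.6% of all genes tested had none. Light damage replicate 3 was the lowest of its group for all 10 genes, and it was also the lowest in summed microglia markers. Within the libraries with more anterior tissue RNA the log2 fold changes were 3.67 for Tlr7, 3.61 for Tlr2, 1.89 for Tlr3 and 0.77 for Myd88. In the single pair with less of it, control replicate 3 and light damage replicate 3, they were 2.17, 2.58, 1.11 and 0.40 in the same order. None of the 8 differences between these values was called, but with a single pair on 1 side the test had little power. The unadjusted edgeR p was 0.00425 for Tlr4 and 0.0450 for Tlr3, and the adjusted p ran from 0.143 to 0.971.

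The second comparison asked how these genes differed between light damage with A74 and light damage alone. The 2 comparisons share the light damage libraries, so the second is not independent of the first. Tlr7, Tlr2, Tlr13, Cd14, Tlr3 and Myd88 were lower with A74, from 1.69-fold for Myd88 to 15.2-fold for Tlr7. The edgeR test called 6 of the 8 tested genes lower and none higher, where 9.19% of all genes tested were called lower and 9.07% higher. Without light damage replicate 3 and A74 replicate 1 the count was 6 too, where 12.7% of all genes were called lower. That fit leaves out the lowest light damage library of each gene, so it is no added support either. Groups did not overlap for 6 of the 8, where 35.2% of all genes tested had no overlap. The median log2 fold change of the 8 was -1.32, and that of all genes tested was 0.00. In the fit without a count minimum, 6 of 10 were called lower, where 5.86% of all genes were.

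Tlr7 had 0.255, 0.359 and 0.266 CPM in A74 replicates 1 to 3, against 2.75 to 6.14 CPM in light damage. The log2 fold change was -3.93 (SE 0.38, edgeR adjusted p = 1.39e-05), and the A74 values stood on 4 to 6 counts a library. Tlr7 and Tlr13 lie on the X chromosome. The Xist-high control library, replicate 3, had 0.607 CPM of Tlr7, the highest of the 3 control libraries, and 0.472 CPM of Tlr13, the lowest of the 3. These values stood on 9 counts of Tlr7, against 5 and 8, and 7 counts of Tlr13, against 8 and 10. With so few counts in a single library they say little about Xist, and a link was not tested.

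Tlr2 had 0.638, 0.419 and 0.332 CPM with A74, and the log2 fold change stood at -2.47 (SE 0.43, adjusted p = 0.00115 by edgeR). Tlr13 had 0.957, 0.538 and 0.531 CPM with A74, and its log2 fold change was -1.98 (SE 0.41, edgeR adjusted p = 0.00393). The highest A74 value of Tlr13 and of Tlr2 was that of replicate 1, the A74 library with more anterior tissue RNA. Cd14 had 1.66, 1.56 and 2.32 CPM with A74, with a log2 fold change of -1.44 (SE 0.25, adjusted p = 0.00137 by edgeR).

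Tlr3 had 5.36, 5.38 and 5.45 CPM with A74, the narrowest range of the 10 genes relative to its level. Its log2 fold change was -1.20 (SE 0.21, edgeR adjusted p = 0.00151). Myd88 had 4.59, 5.38 and 6.51 CPM with A74, and the log2 fold change stood at -0.76 (SE 0.18, adjusted p = 0.00982 by edgeR). The Myd88 call was lost without light damage replicate 1 (edgeR adjusted p = 0.0519).

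Tlr4 had 0.510, 0.598 and 1.06 CPM with A74, a range that lay inside that of the light damage libraries, and its log2 fold change of -0.78 did not pass (edgeR adjusted p = 0.307). Leaving out light damage replicate 3 gave a call at -1.20 (adjusted p = 0.0342 by edgeR). Tlr1 had 0.701, 0.359 and 0.465 CPM with A74, and the fitted difference was -0.72 in log2 units (adjusted p = 0.240 by edgeR). Tlr6 had 6, 4 and 3 counts with A74, and without a count minimum its log2 fold change was -1.45 (SE 0.58, edgeR adjusted p = 0.0911). Tlr9 had 2 to 5 counts with A74.

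**Figure D2:**
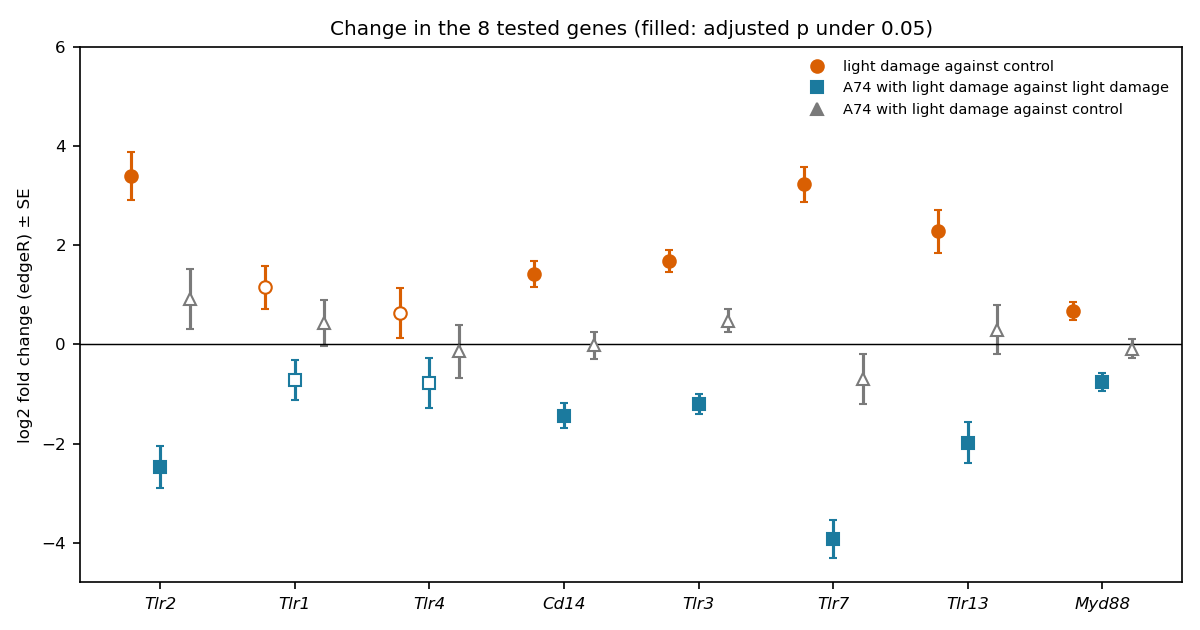
Log2 fold change ± SE (vertical axis) of the 8 tested genes in each of the 3 comparisons, with filled symbols for an adjusted p under 0.05. The 6 genes with filled circles (light damage against control) also have filled squares (A74 with light damage against light damage), and no triangle (A74 with light damage against control) is filled.

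Y-linked counts were 0 in the A74 libraries and present in 2 of the 3 light damage libraries, so their presence varies along with A74. Xist had 17227 to 18172 counts in the A74 libraries and 1 to 4 in the light damage libraries. High Xist and A74 thus cannot be told apart in this comparison. Light damage replicate 3 had 0 Y-linked counts and 1 count of Xist, and the term for Y-linked counts groups it with the Xist-high libraries. With a term for Y-linked counts, 3 of the 8 genes were called lower, where 2.36% of all genes were. These were Tlr7 at -3.46 (edgeR adjusted p = 0.000419), Cd14 at -1.09 (edgeR adjusted p = 0.0477) and Tlr3 at -0.85 (edgeR adjusted p = 0.0477). In that fit Tlr2 had -1.55 (edgeR adjusted p = 0.0925), Tlr13 -1.03 (edgeR adjusted p = 0.228) and Myd88 -0.48 (edgeR adjusted p = 0.208). With terms for both Y-linked counts and anterior tissue, Tlr7 alone was called, at -3.35 (edgeR adjusted p = 0.00135), where 2.41% of all genes were called lower.

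Within the libraries with less anterior tissue RNA, 2 A74 libraries and light damage replicate 3, none of which had Y-linked counts, the log2 fold changes were -3.10 for Tlr7, -1.70 for Tlr2, -0.85 for Cd14, -0.62 for Tlr3 and -0.24 for Myd88. Among the libraries with more of it, A74 replicate 1 against light damage replicates 1 and 2, they were -4.38, -2.34, -1.78, -1.43 and -1.17 in the same order. For Tlr4 the value was 1.30 with less anterior tissue RNA and -1.69 with more. None of these differences between sets was called, in a test with 1 light damage or 1 A74 library on each side and little power. The unadjusted edgeR p was 0.00406 for Tlr4, 0.00985 for Myd88 and 0.0270 for Tlr3, and the adjusted p ran from 0.123 to 0.936.

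**Figure D3:**
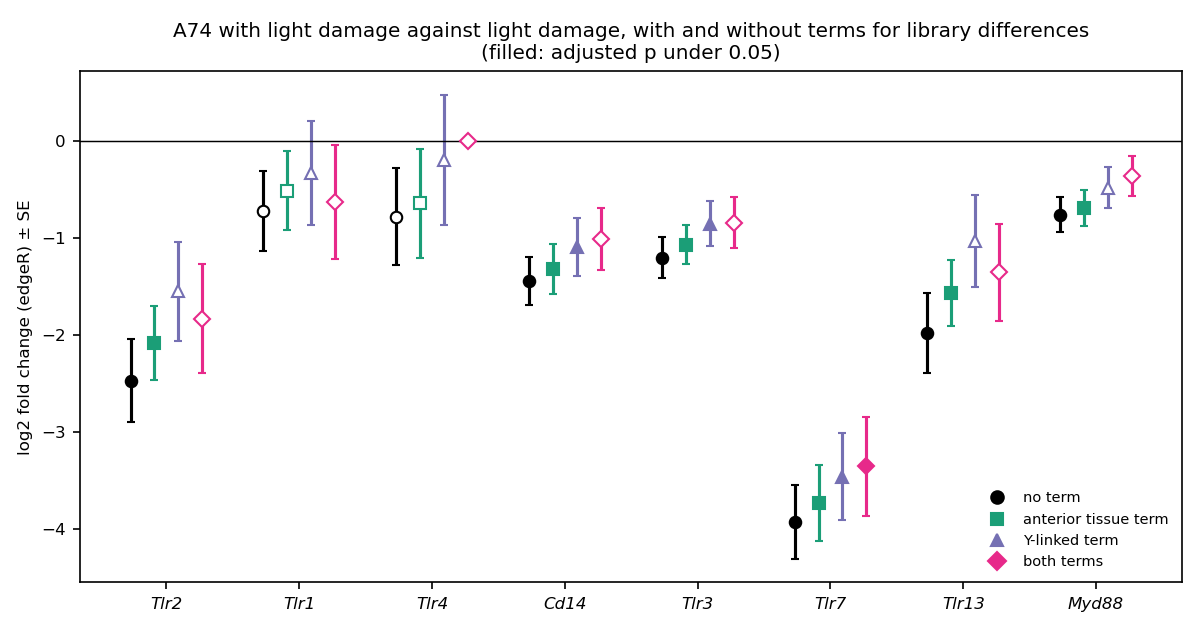
Log2 fold change ± SE (vertical axis) of the 8 tested genes for A74 with light damage against light damage, from fits with no term, with a term for anterior tissue, for Y-linked counts, and for both, with filled symbols for an adjusted p under 0.05. Tlr7 is filled in all 4 fits, Cd14 and Tlr3 in 3, and Tlr2, Tlr13 and Myd88 in 2, and the point of Tlr4 with both terms lies at 0.00 and has no SE bar.

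The third comparison set light damage with A74 against control. The edgeR test called 0 of the 8 genes, where 0.892% of all genes tested were called, and 0 at an unadjusted p under 0.05. DESeq2 also called 0, with an adjusted p for 2 of the 8, where it called 2.49% of all genes with one. Without light damage replicate 3 and A74 replicate 1 the edgeR count was 0, where 5.44% of all genes were called. The largest differences were in Tlr2, at 0.92 in log2 units (SE 0.61, adjusted p = 0.491 by edgeR), and Tlr7, at -0.70 (SE 0.50, adjusted p = 0.536 by edgeR). Tlr3 was the 1 gene of the 8 with no overlap, at 3.39 to 4.34 CPM in control and 5.36 to 5.45 CPM with A74, where 22.8% of all genes tested had none. Its log2 fold change of 0.48 (SE 0.23) did not pass (edgeR adjusted p = 0.318). Cd14 had -0.02 (SE 0.28), Myd88 -0.09 (SE 0.19) and Tlr4 -0.14 (SE 0.54), and these SE leave room for changes of a size that the test could not call.

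Set against the summed microglia and macrophage markers, the genes did not all follow the same course. Tlr7 had 3.48 to 6.25 CPM per 1000 CPM of summed markers in control, 10.1 to 13.4 in light damage and 2.34 to 2.59 with A74, and no groups overlapped. Tlr2 had 1.39 to 3.40 in control and 4.59 to 7.88 in light damage, without overlap, and 2.93 to 6.21 with A74. The light damage ratios of these 2 receptors lay above those of control. For Myd88 the ratio was 51.6 to 66.1 in control, 24.0 to 26.0 in light damage and 38.8 to 57.4 with A74, and for Cd14 it was 18.1 to 18.8, 12.8 to 13.9 and 11.2 to 20.5. The light damage ratios of Myd88 and Cd14 thus lay below those of control. Tlr3 had 33.4 to 40.8 in control, 30.7 to 37.2 in light damage and 38.8 to 52.1 with A74, with overlap between control and light damage. Tlr4 had 6.24 to 10.4 in control and 1.21 to 4.60 in light damage, and Tlr1 had 2.78 to 4.18 and 2.10 to 2.41, both lower in light damage without overlap. The ratio of Tlr13 overlapped between all groups, at 4.86 to 5.67, 4.10 to 9.18 and 3.88 to 9.31 in control, light damage and A74. These ratios describe the libraries and were not tested, and the part of the marker level in the changes of the 10 genes was not tested either. Of the 22 markers 21 were tested, and 17 were called higher after light damage by edgeR, with a median log2 fold change of 1.95. The changes ran from -0.57 for Siglech to 3.96 for Cd68. Siglech, Tmem119 (0.59), P2ry12 (0.63) and Mrc1 (1.95) were not called. The ratios therefore depend on which markers are summed and are not levels per cell.

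**Figure D4:**
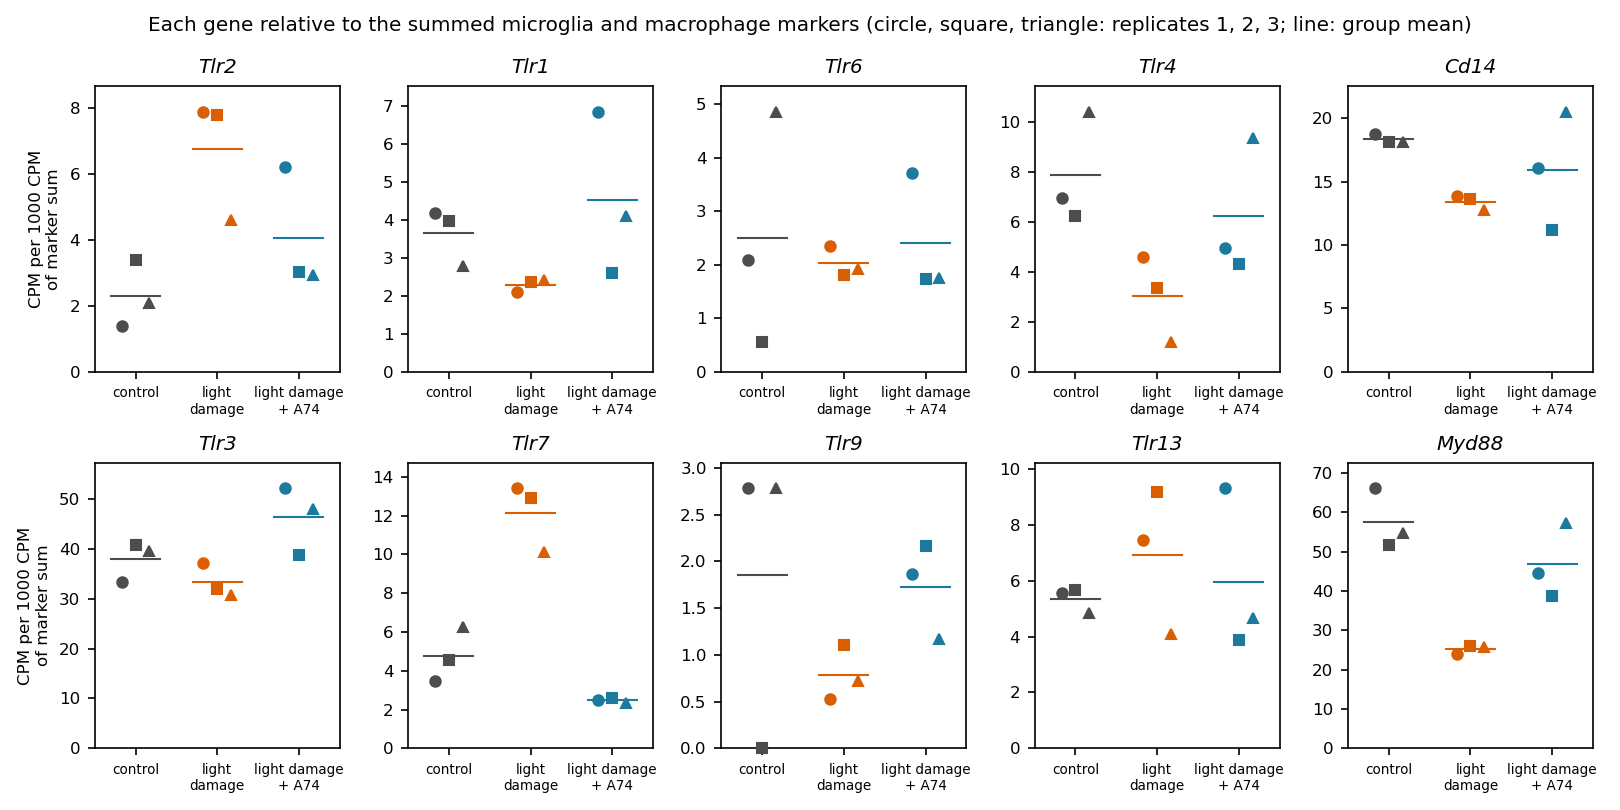
CPM of each gene per 1000 CPM of the 22 summed microglia and macrophage markers (vertical axes, linear, each with its own scale) in the 3 libraries of each group, with the group mean as a line. Tlr7 and Tlr2 are higher in light damage than in control, Myd88, Cd14, Tlr4 and Tlr1 are lower, and Tlr3, Tlr6, Tlr9 and Tlr13 overlap.

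Lists of other pathway genes are read against the shares of all genes tested, 13.0% called higher and 12.8% lower after light damage, and 9.07% higher and 9.19% lower with A74 relative to light damage. With the term for Y-linked counts the shares in the A74 comparison were 1.95% higher and 2.36% lower. Shares are not given for fits that left out a single library, so list counts from those fits describe the listed genes alone. Genes that are low outside light damage entered the test through the light damage libraries, so a count over the tested genes of a list is a description. Cd180, Cxcl10 and Slc15a3 reached the count minimum in light damage libraries alone, and Icam1 in those and 1 other library.

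Among proteins that help the receptors fold, travel or bind ligand, 9 of 14 tested genes rose after light damage and none fell, with a median log2 fold change of 0.84. Cd180, a TLR4-like surface protein gene of immune cells, rose by 4.32 (SE 0.49, edgeR adjusted p = 9.94e-05), from 0.325 ± 0.168 to 6.69 ± 3.78 CPM (SD, n = 3). Slc15a3, an endosomal transporter gene, rose by 2.90, Ctss, a cathepsin gene that is also among the microglia markers, by 1.18, and Ctsb, another cathepsin, by 0.74. With A74 10 of the 14 fell relative to light damage, among them Slc15a3 at -3.09 and Cd180 at -3.90 on the log2 scale, Ctss at -1.01 and Ctsb at -0.71. With a term for Y-linked counts 5 of the 14 fell. Ly96, the gene of MD-2, the partner of TLR4, was picked with its values in view and differed by 0.36 in log2 units after light damage (SE 0.39, adjusted p = 0.548 by edgeR).

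Of 20 tested adaptors and kinases downstream of the receptors, 6 rose and 2 fell after light damage, with a median log2 fold change of 0.01, and the 2 that fell are a share close to that of all genes. Irak2, a kinase of the MYD88 complex, rose by 0.43 and Syk, a kinase of immune receptors, by 1.48, while Tab3, a subunit of the TAK1 complex, fell by 0.57 and Chuk, an IKK kinase gene, fell by 0.23. The count of 8 was 5 without control replicate 2, 4 without control replicate 3, 5 without light damage replicate 1 and 4 without light damage replicate 2. With A74, 3 of the 20 rose and 5 fell relative to light damage, with Tab3 at 0.36, Chuk at 0.25, Irak2 at -0.48 and Syk at -1.90 on the log2 scale. With a term for Y-linked counts these were 1 and 1.

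Among negative regulators of the pathway, 5 of 15 tested rose and 5 fell after light damage. Nfkbia, the NF-kB inhibitor gene, rose by 1.01 and Socs3, a suppressor of cytokine signalling, by 1.61, while Trafd1, a feedback inhibitor gene, fell by 0.65 and Otud7b, a deubiquitinase gene, fell by 0.34. With A74, 3 of the 15 rose and 3 fell relative to light damage, with Trafd1 at 0.62, Tnfaip3, the gene of the deubiquitinase A20, at 0.79, Sarm1, a TIR domain gene of axon degeneration, at 0.38 and Socs3 at -1.66. With a term for Y-linked counts these were 1 and 1. Nfkbia was also higher with A74 than in control, by 0.57 on the log2 scale (edgeR adjusted p = 0.0391), a call that was lost without each of control replicates 1, 2 and 3, light damage replicate 2 and A74 replicates 1 and 2.

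Of 14 transcription factors 9 rose and 1 fell after light damage, with a median log2 fold change of 1.12. Relb, an NF-kB subunit gene, rose by 2.01, and Irf8 and Spi1, transcription factors of myeloid cells, by 2.24 and 2.38, while Irf3, which acts downstream of TLR3, fell by 0.39. With A74, 2 rose and 7 fell relative to light damage, with Irf3 at 0.46, Relb at -1.51 and Irf8 at -1.53, while Spi1 fell by 2.00 on the log2 scale. The 9 calls were 5 without A74 replicate 3, and 3 with a term for Y-linked counts. Against control, Jun, an AP-1 subunit gene, was higher with A74 (0.64, edgeR adjusted p = 0.00408).

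Cytokines and other products of the pathway were mostly under the count minimum. Of 18 listed targets 4 were tested and 3 rose after light damage, namely the adhesion gene Icam1 by 2.46, the iron-binding lipocalin gene Lcn2 by 4.05 and the chemokine gene Cxcl10 by 4.94. With A74 the log2 fold changes against light damage were -2.39, -4.43 and -4.62 in the same order, and none of the 3 was called with terms for both Y-linked counts and anterior tissue. Without a count minimum, 9 of 16 rose after light damage and 9 of 16 fell with A74, where 7.96% and 5.86% of all genes did. Calls without a count minimum are not alike in strength to those of the main fit. The cytokine genes Tnf and Il1b had 8 and 13 counts summed over the 3 light damage libraries, Il6 had 2, and Ifnb1 had 0 in all libraries.

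P2rx7, named in the series title, had 0.469 ± 0.256 CPM in control, 1.61 ± 0.558 in light damage and 0.648 ± 0.169 with A74 (SD, n = 3). It rose by 1.74 after light damage (SE 0.42, adjusted p = 0.00648 by edgeR) and kept that call in each of the 9 fits that left out 1 library. It fell by 1.30 with A74 relative to light damage (edgeR adjusted p = 0.0325). That second call was lost without light damage replicate 1 or 2 or any of the 3 A74 replicates, with edgeR adjusted p up to 0.156. It was also lost with DESeq2 and with a term for Y-linked counts or for anterior tissue.

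Other genes followed the course of these closely over the 9 libraries, by Pearson's r of log2 CPM given as a description. Since all 9 libraries share the group differences, high values are common among genes that changed. The genes nearest to Tlr7 were Gfap, the intermediate filament of glia (r = 0.991), Gpm6a (0.991) and Ms4a6b (0.987). Nearest to Tlr2 were Psmb10, an immunoproteasome subunit gene (0.992), Cavin1 (0.990) and Efhd2 (0.989). Tlr13 was nearest to Irgm1, an interferon-inducible GTPase gene (0.993), Vim, a filament gene of glia (0.991), and Ctsh (0.990). Tlr3 was nearest to Anxa6 (0.992), Wscd1 (0.991) and Jpt1 (0.991), and Myd88 to Ninj1 (0.992), Ddc (0.987) and Kcnip1 (0.978). Cd14 was nearest to Htra1, Grn and Ap1s2 (0.985 each), Tlr1 to Lhx2 (0.984), Drap1 (0.976) and Khdrbs3 (0.970), and Tlr4 to Ccdc141 (0.958), Epha10 (0.955) and Usp27x (0.952).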

How the data were processed

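The authors deposited 1 gene table of counts for the 9 libraries, whole numbers with no normalisation. Per the submitters' processing notes, the tools included Bowtie2, RSEM 1.3.1 and DESeq2 1.4.5 and the build was GRCm39, with no role stated. Whether the counts are rounded RSEM estimates, and whether strand was used, is not given in the sources used here. Groups and replicate numbers came from the titles and columns from the library names. Counts were filtered with filterByExpr (minimum count 10), given TMM factors and fitted by edgeR 4.0.16 (R 4.3.3, robust quasi-likelihood test) in 1 fit of the 9 libraries, with Benjamini-Hochberg adjustment over 17272 genes and calls at an adjusted p under 0.05. CPM uses the TMM-scaled totals, log2 CPM a prior count of 2, and the SE was taken as the absolute log2 fold change over the root of F. The test was checked on simulated counts. The anterior tissue split was made at the widest gap of the summed CPM of 8 genes.

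The members, lists and alternatives were chosen with earlier results of these data known. The alternatives were DESeq2 size factors, no count minimum, DESeq2 1.42.0, the 2 groups compared alone, a replicate block, terms for Y-linked counts and anterior tissue, and leaving out libraries. Named are the 10 genes, up to 4 genes of a list with the smallest adjusted p in a comparison, the 3 genes nearest to each tested member (predicted genes and clone names left out), and P2rx7. Beside this rule, marker genes of other cells, Ly96 and untested cytokine and ligand genes (Tnf, Il1b, Il6, Ifnb1, S100a8, S100a9) were named with their values in view. The 4 motifs were chosen by hand. Sequences are from RefSeq (GRCm38.p6), another build than the table's, and serve as sequence only.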

Additional observations from a re-analysis of the deposited data

How the results depend on the processing

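Depth limited what could be read for Tlr1, Tlr2, Tlr6, Tlr7, Tlr9 and Tlr13, which had at most 10 counts in each control library. Of 425 log2 fold changes of the 8 tested genes under the alternatives, 385 kept their direction and their side of the threshold. For light damage against control, members called ranged from 5 to 8 over fits that left out 1 library, for A74 with light damage against light damage from 5 to 7, and for A74 with light damage against control they were 0 in each. With the replicate number as a block the counts were 6, 6 and 0. The shares of all genes called are not given for the block fit or for fits that left out 1 library. Counts from those fits therefore describe the 8 genes alone. Same-numbered libraries of different groups had correlations of their deviations from -0.09 to 0.31, over 0.1 in 6 of 9 pairs. Pairs with other numbers ran from -0.29 to 0.20, over 0.1 in 5 of 18. The highest value, 0.31, joined control replicate 3 and light damage replicate 3, which both had 0 Y-linked counts and less anterior tissue RNA. Replicate numbers are those of the titles, and the library names of light damage and A74 carry other numbers. The labels state no pairing and the main fit had no block, so these correlations are a description and do not show a pairing. For A74 with light damage against light damage, the count of 6 was 3 with a term for Y-linked counts and 1 with that term and the anterior tissue term. Directions that turned were those of genes with small changes. Tlr4 in that comparison had 0.00 with both terms. For A74 with light damage against control, leaving out 1 library gave -0.50 to 0.07 for Tlr4, -0.21 to 0.10 for Cd14, -0.22 to 0.03 for Myd88 and -0.03 to 0.45 for Tlr13. In that comparison, the Y-linked term gave 0.35 for Tlr4, 0.31 for Cd14 and 0.18 for Myd88, and the anterior tissue term 0.08 for Cd14. Both terms together gave 0.56 for Tlr4, 0.38 for Cd14 and 0.29 for Myd88. Without light damage replicate 3 and A74 replicate 1 the values were 0.05 for Tlr4, -0.03 for Tlr13, 0.05 for Cd14 and 0.03 for Myd88. The cause of these shifts was not tested.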

Other observations

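Receptors of the interleukin-1 family also signal through MYD88. Of 5 tested genes of this family, 1 rose after light damage, where 13.0% of all genes did, and 1 fell with A74, where 9.19% did, so the counts say little about the family. Both times the gene was Il33, an alarmin gene, at 63.6 ± 6.71 CPM in control, 92.7 ± 14.9 in light damage and 62.6 ± 5.21 with A74 (SD, n = 3). Its log2 fold changes were 0.55 after light damage (edgeR adjusted p = 0.00796) and -0.57 with A74 relative to light damage (edgeR adjusted p = 0.00965). Without light damage replicate 3, 3 of the 5 fell with A74, and the share of all genes in that fit is not given. Il1r1, the interleukin-1 receptor gene, had 0.35 after light damage (edgeR adjusted p = 0.0910).

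Of 7 tested genes of proteins described as endogenous ligands of Toll-like receptors, 5 were called in neither of these comparisons. Fn1, the fibronectin gene, rose by 0.38 and Hmgb1, a chromatin protein released by dying cells, rose by 0.17 after light damage, and both fell with A74, by 0.38 and 0.26 relative to light damage. Those 2 of 7 stand beside 13.0% of all genes called higher after light damage and 9.19% lower with A74. After light damage the 2 calls were 1 without control replicate 2, control replicate 3 or light damage replicate 2. S100a8 and S100a9, whose products form the TLR4 ligand calprotectin, had at most 1 and 2 counts in a library.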
